A study of Mus musculus with 8 samples.

Results

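The 44 genes described here are 38 Hox genes of the Hoxa, Hoxb, Hoxc and Hoxd clusters, 3 Meis genes and 3 Pbx genes, out of 21900 protein-coding genes in the annotation. Hox genes encode homeodomain factors that give cells their position along the body axis and that also act in blood formation. PBX and MEIS proteins, homeodomain factors of the TALE class, bind DNA together with HOX proteins. In bone marrow, Hoxa9 and Meis1 are known for their activity in stem and progenitor cells and for their part in acute leukaemia, and C/EBPα, a leucine zipper factor of the myeloid lineage, is known to work with HOXA9 there. The assay was CUT&RUN with an antibody to C/EBPα: the antibody guides a nuclease to the factor, and the DNA cut free beside it is sequenced. The cells were Lin- KIThi-int FLT3+ progenitors sorted from mouse bone marrow.

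The groups were DC, DE and WT, which are genotypes of the Zeb2 -165-kb enhancer, with 2 anti-C/EBPα libraries each. Replicate 1 of every genotype came from batch 1 and replicate 2 from batch 2, and a further 2 libraries made with control IgG from WT cells were not analysed here. What the DC and DE variants change in the enhancer, the sex and age of the mice, and whether the replicates came from separate animals are not given in the sources used here, so p-values measure the spread between these libraries. Peaks of the 6 libraries that shared at least 1 bp were joined into 259446 regions. Of these, 182 lay within 10 kb of the body of a member gene. The Hoxa cluster had 34, the Hoxb cluster 27, the Hoxc cluster 22 and the Hoxd cluster 13, while the Meis genes had 54 and the Pbx genes 32. Of the 182 regions, 42 lay within 1 kb of an end of a member, 90 lay further inside one, and 50 lay outside. Neighbouring Hox genes shared regions, since 68 of the 182 were within 10 kb of more than 1 member.

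The libraries differed in how many peaks had been called, from 50221 in DC replicate 2 to 169943 in DC replicate 1. DC replicate 1 therefore stood apart in every count of called regions: it had 116 of the 182 member regions (64.6% of all regions were called in it), and 110 were left when it was not used. The level of a region is given as its summit pileup, the number of fragments over the highest point of the peak, which was solved from each peak's fold and p-value. For comparison between libraries it was divided by a factor per library, so that the median region was equal, and is then called the scaled pileup. Read totals are not in the peak lists, so the sequencing depth is unknown. Genes listed as markers of the progenitors all had a region in both libraries of each genotype (4 of 4: Ptprc, Flt3, Cd34 and Kit). Of these, Kit and Flt3 encode receptors named in the sort. Over all protein-coding genes the shares were 60.6% in DC, 58.0% in DE and 56.7% in WT. Among 8 markers of other cells, 4 had one in DC, 4 in DE and 3 in WT, Klf1, Cd79a and Itga2b included, so that a region near a gene does not show that the gene is expressed.

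C/EBPα regions reached the starts of a few member genes. RefSeq start windows (GRCm38.p6, 250 bases before to 50 after a start) were at hand for 27 of the 44 members, in 29 windows. A region called in all 6 libraries overlapped 4 of the 29, against 17.59% of 32851 windows of all genes: those of Hoxa5, Hoxa11, Meis1 and Pbx4. In both DC libraries 5 of the 29 were overlapped (23.23% of all windows), in both DE libraries 4 (21.11%) and in both WT libraries 4 (20.91%). The windows of Hoxa11 and Meis1 are printed because the summits of the 6 libraries fell closest together there. Capitals mark the bases from the first to the last of the 6 summits, 42 bases in Hoxa11 (chr6:52245761-52246060, minus strand, summits at -98 to -57 from the start) and 57 in Meis1 (chr11:19018920-19019219, minus strand, summits at -37 to 19).
Hoxa11: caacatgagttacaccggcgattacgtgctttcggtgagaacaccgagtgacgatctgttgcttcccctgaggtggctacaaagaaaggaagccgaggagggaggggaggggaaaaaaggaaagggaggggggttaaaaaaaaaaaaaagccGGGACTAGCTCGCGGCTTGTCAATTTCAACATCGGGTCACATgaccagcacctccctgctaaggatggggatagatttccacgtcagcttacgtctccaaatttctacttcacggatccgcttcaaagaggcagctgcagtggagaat
Meis1: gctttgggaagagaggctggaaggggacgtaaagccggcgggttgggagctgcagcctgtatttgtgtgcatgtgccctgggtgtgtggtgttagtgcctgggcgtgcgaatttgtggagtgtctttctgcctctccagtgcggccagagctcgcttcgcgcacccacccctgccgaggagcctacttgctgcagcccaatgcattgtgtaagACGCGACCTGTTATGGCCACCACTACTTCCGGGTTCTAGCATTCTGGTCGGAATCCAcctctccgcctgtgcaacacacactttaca

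The windows of Hoxa11 and Meis1 held 51.0% and 58.3% G and C with 15 CpG each, against medians of 52.7% and 7 over all windows. At Hoxa5 the summits lay further downstream, at 85 to 201, and at Pbx4 they were spread from -278 to 3. A C/EBP motif written as TTGCNNAA, searched on both strands, was in 5 of the 29 member windows and in 10.8% of all windows. None of the windows of Hoxa5, Hoxa11, Meis1 and Pbx4 held these letters. All Hoxa5 summits and some Pbx4 summits lay outside the windows, so the bases under them were not searched for any motif. The HOX-PBX motif TGATTNAT was in 2 of 29 member windows (3.22% of all) and the MEIS motif TGACAG in 2 of 29 (19.2% of all), and neither was in those 4 windows. Each motif was counted separately, so that overlapping matches counted for both.

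The clusters differed widely in how many of their genes were near a region. In both DC libraries 21 of the 44 members had a region within 10 kb (47.73%, against 60.6% of all protein-coding genes). In both DE libraries it was also 21 (47.73%, against 58.0%), and in both WT libraries 16 (36.36%, against 56.7%). Gene length was not matched in these shares, and a region shared by neighbours counted for each of them. Of 10 Hoxa genes, 8 had one in DC, 8 in DE and 8 in WT, and the other two were Hoxa4 and Hoxa13. Of 10 Hoxb genes, 4 had one in DC, 4 in DE and 4 in WT: Hoxb3, Hoxb4, Hoxb5 and Hoxb6, the middle of the cluster. Of 9 Hoxc genes, 2 had one in DC (Hoxc10 and Hoxc11, which share 1 region), 0 in DE and 0 in WT. Of 9 Hoxd genes, 3 had one in DC (Hoxd10, Hoxd11 and Hoxd12, which share 1 region) and 0 in WT. In DE 4 had one: Hoxd3, and Hoxd9, Hoxd10 and Hoxd11, which share 1 region. Counted as regions, the genotypes were alike, with 26 member regions called in both libraries in DC, 27 in DE and 26 in WT. Among the TALE genes, Meis1, Pbx2, Pbx3 and Pbx4 had one in all 3 genotypes, Meis3 in DE alone of the 3, and Meis2 in none. Hoxd1 and Hoxd8 had no region in any library.

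Counted per 100 kb, the Hoxa cluster had more regions than the average gene window in every library. It had 20.3 and 10.1 regions per 100 kb in DC replicates 1 and 2, 6.75 and 8.44 in DE, and 9.29 and 9.29 in WT. All protein-coding gene windows together had 8.23 and 2.73 in DC, 2.83 and 3.14 in DE, and 4.09 and 3.15 in WT. The Hoxc cluster had 10.3 and 2.21 in DC, 1.47 and 2.21 in DE, and 0 and 1.47 in WT, below the gene windows in 5 of the 6 libraries. The Hoxd cluster, with 5.99 and 0.855 in DC, 2.57 and 1.71 in DE, and 2.57 and 1.71 in WT, was below them in all 6. The Hoxb cluster had 10.8 and 2.16 in DC, 5.03 and 3.59 in DE, and 6.46 and 5.75 in WT, below the gene windows in DC replicate 2 and above them in the other five. Regions called in both libraries of a genotype numbered 2.11 per 100 kb of all member windows in DC, 2.19 in DE and 2.11 in WT. All protein-coding gene windows had 2.12 in DC, 1.94 in DE and 1.82 in WT. These densities are a description of the windows and were not tested.

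**Figure D1:**
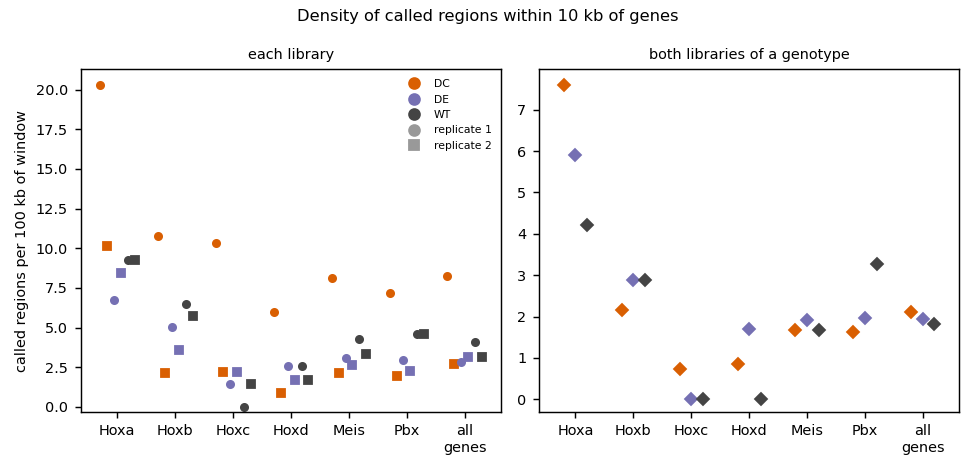
Regions per 100 kb within 10 kb of the genes of each group (horizontal axis), for each library on the left and for regions called in both libraries of a genotype on the right, with all protein-coding genes last. Colours are DC, DE and WT, and in the left panel circles are replicate 1 and squares replicate 2. Hoxa lies above all genes in each library, and Hoxc is at 0 in WT replicate 1.

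Most regions of the members were seen once. Of the 182, 133 (73.08%) were called in 1 library, against 76.67% of all regions and 72.25% of those within 10 kb of a protein-coding gene, and 72 of those 133 came from DC replicate 1. Regions called in both libraries of a genotype numbered 26 in DC (14.0% of all regions were), 27 in DE (12.9%) and 26 in WT (12.1%). In all 6 libraries 19 were called (10.44%, against 9.05% of all regions and 10.97% of those within 10 kb of a protein-coding gene), of which 5 lay in Hoxa, 3 in Hoxb, 0 in Hoxc, 0 in Hoxd, 6 at Meis1 and 5 at Pbx genes.

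**Figure D2:**
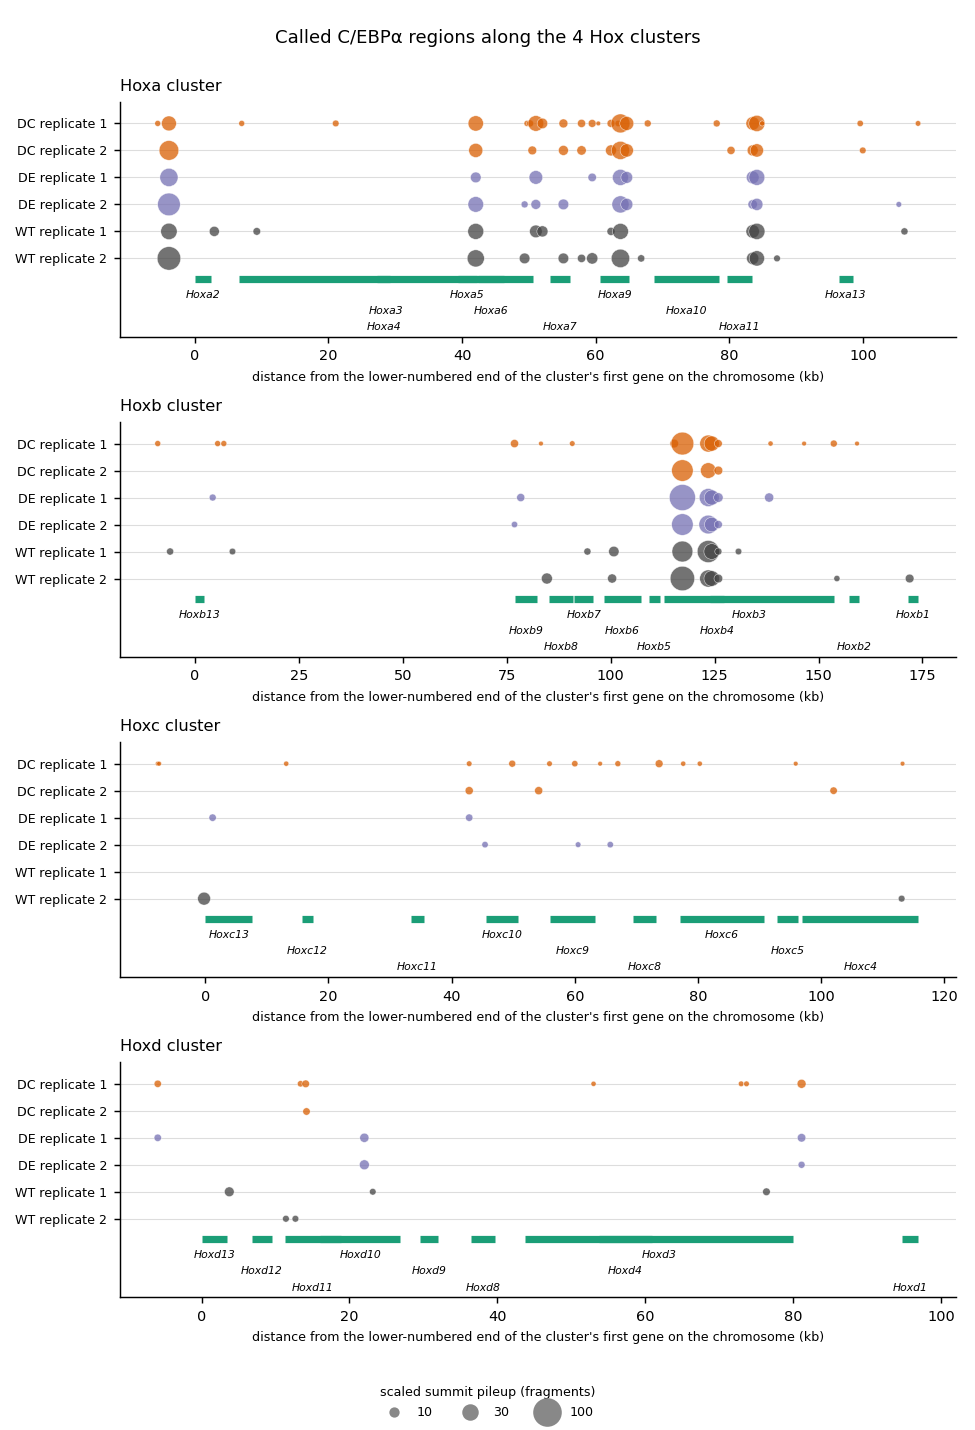
Called regions along the 4 Hox clusters: the horizontal axis is the distance in kb from the lower-numbered end of the first gene, each row is a library, each circle is a region and its area grows with the scaled pileup (fragments). Green bars are gene bodies, which overlap in places. The 5 Hoxa regions and 3 Hoxb regions called in all 6 libraries form columns of circles, and the Hoxc and Hoxd clusters have no such column.

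In the Hoxa cluster the highest region (chr6:52158095-52158992) lay 3425 bp from the nearer end of Hoxa2, a gene of hindbrain patterning, where the ends of the long non-coding RNAs Hotairm1 and Hotairm2 meet. Its scaled pileup was 30.9 and 53.7 fragments in DC replicates 1 and 2, 46.0 and 71.3 in DE, and 37.3 and 76.7 in WT. Replicate 2 was the higher in each genotype. Within batch 1 DC was 0.827 times WT (95% exact binomial interval 0.530 to 1.30) and within batch 2 0.70 times (0.454 to 1.06), and DC was below DE in both batches. Ratios of DC over WT as low were found at 30.7% and 18.8% of all regions. DE was 1.23 times WT in batch 1 and 0.930 times in batch 2. Across batches DC, DE and WT overlapped. Hoxa9, the HOX factor best known from leukaemia, carried a region in its body 1043 bp from its nearer end (chr6:52225917-52226327). It had 50.0 and 46.0 fragments in DC, 36.0 and 40.8 in DE, and 35.3 and 47.3 in WT, so that both DC libraries were above both DE libraries and overlapped WT. At Hoxa11, a limb and reproductive tract gene, 2 regions lay 10 bp and 588 bp from the gene end, both also over the antisense RNA Hoxa11os. The nearer one, at the printed window, had 25.3 and 16.9 fragments in DC, 22.6 and 12.5 in DE, and 25.2 and 21.0 in WT. The further one (chr6:52246398-52246677) had 36.4 and 24.5 in DC, 35.1 and 20.4 in DE, and 36.3 and 32.6 in WT. Replicate 1 was the higher of each pair at both Hoxa11 regions, and DC, DE and WT overlapped. Hoxa5, a lung and skeletal patterning gene, had a region over its start (chr6:52204285-52204645) with 32.7 and 27.6 fragments in DC, 15.9 and 34.0 in DE, and 35.3 and 41.0 in WT. There all 4 DC and DE libraries were below both WT libraries.

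Another region at Hoxa9 was called in each DC and DE library but in no WT library. It lay 123 bp inside the gene end at its start, with the summit 280 bp into the gene (chr6:52226889-52227247). The pileup before scaling was 44 and 16 fragments in DC and 23 and 18 in DE, and the scaled pileup was 27.2 and 24.5 in DC and 19.2 and 20.4 in DE. At the background of the WT region 0.946 kb away, up to 6 fragments in WT replicate 1 and 7 in WT replicate 2 could have gone uncalled. DC replicates 1 and 2 were 4.49 and 3.34 times that limit, and DE replicates 1 and 2 were 3.18 and 2.77 times. Of all 259446 regions, 954 (0.368%) had this pattern of calls. Ranked by their lowest scaled pileup in DC and DE, the Hoxa9 region was number 91, at 19.2 fragments against a median of 10.7. The WT level itself was not measured, so no test was made.

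**Figure D3:**
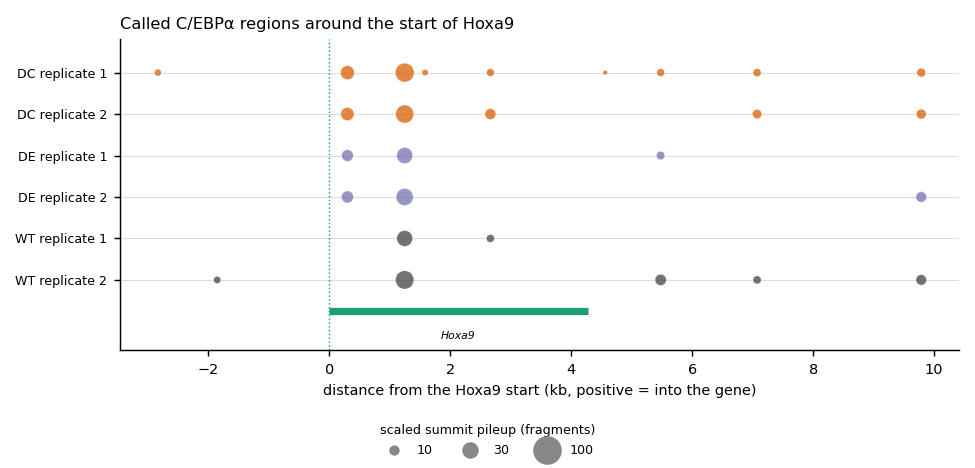
Called regions around the start of Hoxa9: the horizontal axis is the distance from the start in kb, positive into the gene (green bar), each row is a library and circle area grows with the scaled pileup (fragments). The circles nearest the start inside the gene stand in the 4 DC and DE rows, at 19.2 to 27.2 fragments, and are missing from both WT rows, while the next column inside the gene is present in all 6 rows.

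Other Hoxa regions called in each DC library and missing from DE were smaller. A region in Hoxa9, 1523 bp from its nearer end, had 14 and 11 fragments in DC and 9 in WT replicate 1, and no call in DE. One 1625 bp from Hoxa7, a neighbour in the cluster, had 15 and 8 in DC and 9 in WT replicate 2, again with no call in DE. With 3 such member regions, calls in both DC and neither DE library had a background of 1.02% of all regions. The remaining one, in Hoxd11, is given with its cluster.

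The 3 Hoxb regions called in all libraries sat in and beside Hoxb4, a gene known for expanding blood stem cells, and its neighbour Hoxb3. The highest (chr11:96311214-96311937), inside the long Hoxb3 gene body 4113 bp from its end, had 72.3 and 64.4 fragments in DC, 94.5 and 64.5 in DE, and 60.6 and 83.0 in WT. It was higher than 80.8% of the regions called in all 6 libraries. The next (chr11:96317662-96317930) lay 337 bp from Hoxb4 and 388 bp from the microRNA gene Mir10a. It had 40.2 and 33.7 fragments in DC, 45.2 and 48.7 in DE, and 67.6 and 41.0 in WT, so that both DC libraries were below all 4 others. The lowest (chr11:96320108-96320337), inside Hoxb4, was near the lower limit of what was called, with 14 and 7 fragments before scaling in DC, 15 and 8 in DE, and 7 and 10 in WT.

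Regions of the Hoxc and Hoxd clusters had low pileups, none of them over 22 fragments before scaling. The Hoxc region called in the most libraries (chr15:102963874-102964113), 2683 bp from Hoxc10, had 7 and 6 fragments in DC and 9 in DE replicate 1. In scaled pileup DC was 0.857 and 0.973 times the limit below which a region could have gone uncalled in WT, so that the same level could be present there. The WT backgrounds behind these limits were read 67.3 kb and 43.0 kb away. The highest Hoxc call was 22 fragments in WT replicate 2 alone, 110 bp from Hoxc13, a hair follicle gene. Next by −log10 q was a region of 14 fragments in DC replicate 1, 456 bp from Hoxc8. In the Hoxd cluster a region 1055 bp from Hoxd3 (chr2:74749326-74749445) had 18 fragments in DC replicate 1 and 12 and 6 in DE. One in Hoxd10, 3156 bp from the end of Hoxd11 (chr2:74690172-74690298), had 14 and 12 fragments in DE and no call in DC or WT. One in Hoxd11, 1877 bp from Hoxd10 (chr2:74682203-74682396), had 13 and 5 fragments in DC and no call in DE or WT. Its summit was 28 bp before a RefSeq start of Hoxd11, and this was the fifth start window that both DC libraries overlapped. That window held both TTGCNNAA and TGATTNAT.

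Meis1, the HOX cofactor that joins HOXA9 in leukaemia, had 31 regions, more than any other member, along 139224 bp. Of these, 6 were called in all libraries. The highest lay over the start (chr11:19018708-19019260), at the printed window, with 64.8 and 36.8 fragments in DC, 53.5 and 44.2 in DE, and 39.4 and 63.0 in WT. DC and DE were higher in replicate 1 and WT in replicate 2, and the genotypes overlapped. Next came a region 4081 bp beyond the other gene end (chr11:18875840-18876347), with 31.5 and 21.5 fragments in DC, 35.1 and 13.6 in DE, and 52.5 and 23.1 in WT. A region 61457 bp inside the gene (chr11:18957363-18958194) had 30.9 and 18.4 in DC, 20.9 and 28.3 in DE, and 27.3 and 17.9 in WT. The 6 regions of Meis1 had mean levels of 14.5 to 49.1 fragments. Meis2, a relative with a longer gene body, had 16 regions and none in more than 2 libraries. Meis3 had 7, of which one 7283 bp beyond its end (chr7:16193793-16194061) had 24 fragments in DC replicate 1 and 12 and 16 in DE.

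**Figure D4:**
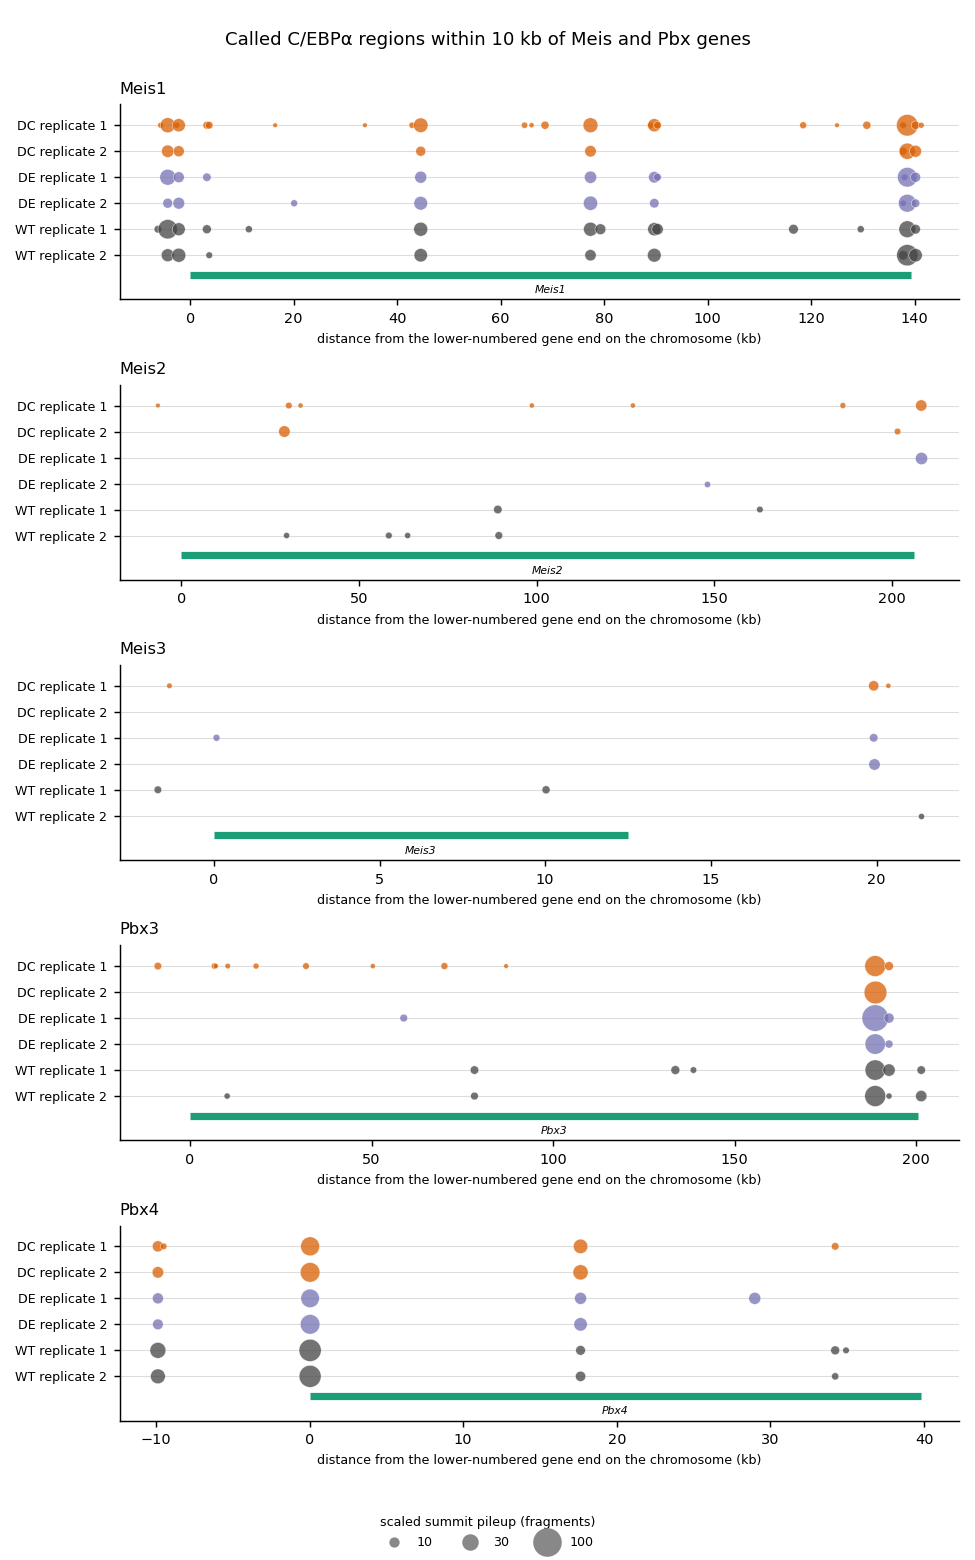
Called regions within 10 kb of Meis1, Meis2, Meis3, Pbx3 and Pbx4: the horizontal axis is the distance in kb from the lower-numbered gene end, each row is a library, circle area grows with the scaled pileup (fragments) and the green bar is the gene body. Meis1 has 6 columns present in all rows and Meis2 none, and at Pbx4 the third column has larger circles in DC and DE than in WT.

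The highest level among the members was near Pbx2, a broadly expressed PBX gene, but over its neighbours: the region (chr17:34603393-34604469) lay 5993 bp beyond Pbx2, over the ends of Rnf5 and Agpat1. It had 251 and 279 fragments in DC, 323 and 327 in DE, and 233 and 264 in WT, higher than 99.2% of regions called in all libraries. Both DE libraries were above the other four. Pbx3, the PBX gene known to act with HOXA9 in leukaemia, had a region 11674 bp inside its upper-numbered end (chr2:34359897-34360371) with 60.5 and 72.1 fragments in DC, 97.9 and 57.8 in DE, and 57.5 and 60.9 in WT. Pbx3 also had both member regions called in both WT libraries and neither DC library, against 0.39% of all regions, and neither was called in DE. One (chr2:34372692-34372920) lay 647 bp beyond its upper-numbered end, with 10 and 17 fragments in WT. The other (chr2:34249697-34249910) lay 78240 bp inside its lower-numbered end, with 10 and 8. Within batch 1, WT was 4.08 times the scaled pileup that could have gone uncalled in DC at each of them. Within batch 2, WT was 1.46 times that limit at the region beyond the gene and 0.685 times at the one inside it, so that there a level like that of WT could have gone uncalled in DC. The DC background behind the last value was read 110 kb away, and that behind the value of 1.46 was read 12.7 kb away. In batch 1 the DC background was read 8.87 kb from the region beyond the gene and 8.28 kb from the one inside it. At both places it was 1.112, the lowest background of DC replicate 1, so these limits are not local ones.

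At Pbx4, a PBX gene best known from the testis, 3 regions were called in all libraries, and none of them passed the test between genotypes. A region in the gene body 17566 bp from its nearer end (chr8:69850042-69850196) had 29.0 and 32.2 fragments in DC, 20.1 and 24.9 in DE, and 13.1 and 14.7 in WT, so that DC was above DE and DE above WT with no overlap. The region over the start (chr8:69832255-69832776) had 50.0 and 53.7 in DC, 47.7 and 53.2 in DE, and 68.6 and 67.2 in WT. The region 9627 bp before it (chr8:69822367-69822849), over Lpar2, a receptor gene for lysophosphatidic acid, had 17.3 and 18.4 in DC, 16.7 and 15.9 in DE, and 35.3 and 30.5 in WT. At these last regions all 4 DC and DE libraries were below both WT libraries in scaled pileup. Within batch 1 the body region was 2.21 times as high in DC as in WT (95% exact binomial interval 1.18 to 4.46, counting error only), and within batch 2 it was 2.19 times (1.06 to 4.66). For DE over WT these ratios were 1.53 (0.749 to 3.27) and 1.69 (0.829 to 3.58). The Lpar2 region was at 0.490 (0.287 to 0.828) and 0.604 (0.281 to 1.22) in DC over WT, and at 0.474 (0.259 to 0.844) and 0.520 (0.254 to 1.02) in DE over WT. Of all regions, 3.0% in batch 1 and 4.7% in batch 2 had a DC over WT ratio as high as the body region. For DE over WT these shares were 13.6% and 9.0%. Ratios as low as at the Lpar2 region were found at 4.3% and 10.6% of all regions in DC over WT. In DE over WT they were found at 2.4% and 4.9%.

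None of the 19 regions passed the test between genotypes. In limma with Benjamini-Hochberg adjustment over 23472 regions, 0 of the 19 were called at 0.05 in DC against WT, DE against WT or DC against DE, and 0.0% of all regions were called in any of them. At an unadjusted p under 0.05 there were 2, 1 and 0 of the 19 in these comparisons, against 4.9% higher and 3.1% lower of all regions in DC, 3.03% and 1.84% in DE, and 1.15% and 1.21% in DC against DE. With batch as a term, which the labels allow, 3.15% of all regions were called higher and 1.19% lower in DC, 1.15% and 0.277% in DE, and 0.00426% and 0.00852% in DC against DE. Again 0 of the 19 were among them. The DC and DE comparisons share the WT libraries. Across the 19 the median log2 difference was -0.20 in DC and -0.17 in DE, against -0.02 and -0.004 over all regions, and 6 and 7 of the 19 were above 0. These signs rest on the scaling. Scaled by the background of each library, the medians of the 19 were 0.66 in DC and 0.39 in DE, against 0.84 and 0.55 over all regions, and 18 and 15 of the 19 were above 0. In that scaling Hoxa5 was at 0.52 in DC and -0.16 in DE, and the Pbx4 start at 0.47 in DC and 0.12 in DE.

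The Pbx4 body region came nearest to the threshold. Its log2 difference between DC and WT was 1.14 ± 0.40 (SE; limma adjusted p = 0.477), and 1.14 ± 0.39 with the batch term (limma adjusted p = 0.0752). Scaled by the background of each library with the batch term, where the median of all regions was 0.84, it was 2.00 and was called (limma adjusted p = 0.0378). Over all alternatives run, the adjusted p in limma ran from 0.0378 to 0.782 and the log2 difference from 1.09 to 2.00. Between DE and WT it was 0.69 ± 0.39 with the batch term (adjusted p = 0.497 by limma), and between DC and DE 0.45 ± 0.39 (adjusted p = 0.832 by limma). At the Lpar2 region the differences were -0.88 ± 0.39 in DC and -1.01 ± 0.39 in DE (limma with the batch term, adjusted p = 0.212 and 0.214). Under the background scaling they were -0.02 and -0.46. The Pbx2 region differed by 0.39 ± 0.18 in DE (adjusted p = 0.368, limma with the batch term). The Hoxa9 body region differed by 0.23 ± 0.32 in DC (95% interval -0.40 to 0.86) and -0.09 ± 0.32 in DE (-0.72 to 0.54) with the batch term. The Meis1 start differed by -0.03 ± 0.31 in DC (-0.65 to 0.59) and -0.03 ± 0.31 in DE (-0.65 to 0.58).

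Regions where the libraries of a pair of genotypes did not overlap were counted beside the share of all regions. Both DC libraries were above both WT libraries at 1 of the 19 (17.2% of all regions) and below at 4 (16.8%). Both DE libraries were above both WT libraries at 2 (16.1%) and below at 4 (16.1%). Both DC libraries were above both DE libraries at 3 (15.0%) and below at 2 (15.3%). The regions where DC and DE were both below WT were those at Hoxa5, over Lpar2 and at the Pbx4 start. The share of all regions with this joint pattern was not counted. The separate shares cannot stand in for it, since both comparisons use the same WT libraries. Regions called in one genotype's libraries and absent from another's were 3 member regions for DC and not WT (1.52% of all regions), 4 for DE and not WT (0.846%), 3 for WT and not DE (0.637%) and 1 for DE and not DC (0.276%). The WT and not DE region outside Pbx3 was in Pbx4, 5423 bp from its end, with 13 fragments in DC replicate 1 and 11 and 7 in WT.

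**Figure D5:**
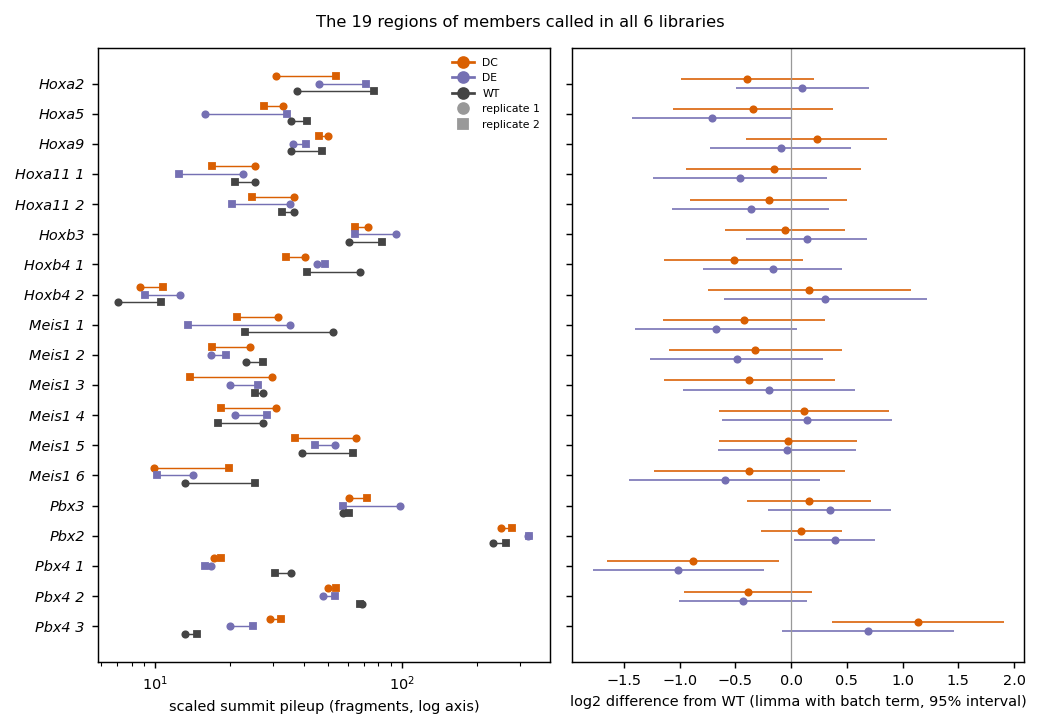
The 19 member regions called in all 6 libraries, named by the member with the nearest end and numbered along the chromosome where there are several. The left panel gives the scaled pileup (fragments, log axis) of each library, in DC, DE and WT from top to bottom of each row, and the right panel the log2 difference from WT for DC and DE with 95% intervals from limma with the batch term. Pbx4 3 is the body region, at 1.14 in DC, and Pbx4 1 is the region over Lpar2, at -0.88 in DC and -1.01 in DE.

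Genes that work with the members, or on which they are known to act, were counted in the same way. Of 20 TALE relatives and regulators of Hox genes, 18 had a region in both DC libraries, 15 in both DE libraries and 14 in both WT libraries. The shares over all protein-coding genes, 60.6% in DC, 58.0% in DE and 56.7% in WT, stand beside this and the next lists too. Their highest levels were at Cbx2, a Polycomb protein (142 fragments on average over the libraries), Tgif2 and Tgif1, repressors of the TALE class (136 and 127), and Ring1, a Polycomb ubiquitin ligase (89.1). Cdx2 and Cdx4, homeodomain factors that switch on Hox genes, had no region in both libraries of any genotype. Of 11 genes known as targets of HOXA9 and MEIS1 in blood, 11 had one in DC, 11 in DE and 10 in WT. Their highest levels were at the growth regulator Myc (195 fragments), the stem cell factor Erg (129), the receptor gene Flt3 (124) and the survival gene Bcl2 (103). Of 11 genes that flank the Hox clusters, 7 had one in DC, 6 in DE and 6 in WT, led by Cbx5 (119), Snx10 (92.4), Evx1 (76.8) and Skap1 (66.8). These lists were chosen with results of these data known and were not tested.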

How the data were processed

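The submitters' processing notes name build mm10, MACS2 2.2.9.1, HOMER, SAMtools, Bowtie2 and Trimmomatic; their roles are not given in the sources used here. Each anti-C/EBPα library has a deposited peak list, with the authors' fold enrichment over local background (a ratio), a −log10 q-value, a −log10 p-value and a score per peak. The file names give a q of 0.1. The deposited merged table, which holds coordinates only, was not used. The lists used here hold no counts per region, so no count test was made.

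The summit pileup k and the background λ were solved together from the fold, taken as (k + 1)/(λ + 1), and from the Poisson tail that gives the p-value. A whole k within 5% of the step between whole numbers was found for 99.847% to 99.994% of peaks per library. In DC replicate 2 and DE replicate 2, 6.629% and 2.876% of peaks had 2 such solutions, and the one nearer to a whole number was used. Pileups at the 23472 regions called in all 6 libraries, with a whole pileup in each, were scaled by the median log2 difference and compared with limma 3.58.1 (R 4.3.3, trended variance, threshold 0.05), without and with batch as a term. Replicate numbers in the labels are batches, so they pair the libraries; deviations from the genotype means correlated with r of 0.548 between DC and WT, 0.415 between DE and WT and 0.384 between DC and DE. Other steps used Python 3.11.15, numpy 2.4.6, pandas 2.3.3 and scipy 1.17.1, and the recovery of pileups and the limma fit were each tested on simulated data.

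Gene positions came from RefSeq (mm10, 1-based, without strand except in start windows). Named regions were, per gene group, the 3 with the highest mean level among those called in all libraries (otherwise those in most libraries, then by −log10 q), those called in a test, and those found in one genotype's pair of libraries but absent from another's. The regions at Hoxa5 and at the printed Hoxa11 window were named for the start windows they overlap. Up to 4 context genes per list were named by level. Members, lists and tests were chosen with earlier results of these data known. Alternatives were other windows, a stricter q, 50% cover, other scaling, a pileup of at least 10, the libraries of a pair of genotypes alone, and leaving out each library. Intervals of within-batch ratios cover counting error only, and those from limma come from the spread between libraries.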

Additional observations from a re-analysis of the deposited data

How the results depend on the processing

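Counts of occupied members moved with the window: within 1 kb they were 12 in DC, 11 in DE and 11 in WT, which closes most of the gap between the variants and WT, and within 50 kb 40 in DC, 33 in DE and 28 in WT. With 1 library in place of both they ranged from 26 to 40 in DC, 29 to 29 in DE and 28 to 30 in WT. Member regions called in both libraries were 45 in DC, 43 in DE and 43 in WT within 50 kb, 17 in DC and 15 in WT where peaks had to cover 50% of the region, and 34 to 116 in DC, 38 to 42 in DE and 51 to 55 in WT with 1 library. Without DC replicate 1, 110 member regions were left. This alternative was chosen after seeing the data. So were the fits that join the batch term with background scaling or with the libraries of a pair of genotypes alone.

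The batch term (replicate block) made calls over all regions where the fit without it made none: 739 higher and 280 lower in DC against WT, 269 and 65 in DE against WT, and 1 and 2 in DC against DE. With background scaling as well there were 679 higher and 0 lower in DC and 8 higher and 0 lower in DE, and 1 member region, that in the Pbx4 body, was called higher in DC at a log2 difference of 2.00. The libraries of a pair of genotypes alone with the batch term gave 672 higher and 242 lower in DC against WT, 183 and 67 in DE against WT, and 30 and 21 in DC against DE. Leaving out each library in turn, with the batch term, gave 142 to 828 higher and 38 to 333 lower in DC against WT, 40 to 223 higher and 4 to 52 lower in DE against WT, and 0 to 15 higher and 0 to 18 lower in DC against DE. The lone library of a genotype is then assumed to vary like the others. The cause of these moves was not tested. No member region was called in any of these leave-one-out fits, where the smallest adjusted p of a member in limma ran from 0.0794 to 0.413 in DC against WT. A region with no peak has no level in these lists, which sets the limit for comparisons at low regions.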
